A study of Mus musculus with 23 samples.

Results

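The 10 genes described here encode integrin subunits: the alpha chains Itga2, Itga3, Itga5, Itga6, Itga7 and Itgav, and the beta chains Itgb1, Itgb3, Itgb5 and Itgb8. They were taken by gene symbol from count tables of 36814 Ensembl genes, 31841 of them with a symbol, and all 10 were in every table. Messenger RNA was sequenced from F9 cells, a mouse embryonal carcinoma line, plated on gelatine-coated dishes. Cells were harvested without retinoic acid (0 h, 4 libraries) or after 6, 12, 24 and 48 h in all-trans retinoic acid (RA) at 1e-07 M (2 libraries per time), and 1 library each came from cells kept for 24 and 48 h in 0.001% dimethyl sulfoxide (DMSO), the solvent of RA. The labels do not say whether replicates were separate cultures, so a p-value reflects library-to-library spread alone, and that spread may be technical.

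An integrin is a pair of 1 alpha and 1 beta chain that spans the plasma membrane, binds matrix proteins outside the cell and is tied to actin inside it by talin and kindlin. Itgb1 is the common partner of Itga2, Itga3, Itga5, Itga6, Itga7 and Itgav, whereas Itgb3, Itgb5 and Itgb8 pair with Itgav. The Itga5 and Itgav receptors bind fibronectin, vitronectin and other ligands with an RGD peptide, the Itga3, Itga6 and Itga7 receptors bind laminins, and the Itga2 receptor binds collagen. Under RA, F9 cells turn toward extraembryonic endoderm, a tissue known for laying down laminin and collagen IV basement membrane, so the comparison over time follows the matrix receptors during that change.

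Levels are given as CPM, the reads counted on a gene scaled to a common total of gene reads per library, and changes as log2 fold changes from edgeR's quasi-likelihood test, each with a standard error (SE) derived from its F statistic. A gene was called where its two-sided p, adjusted by the Benjamini-Hochberg method over all 16155 genes tested, lay under 0.05. Counts at an unadjusted p, or from DESeq2 as another test, come without the share of all genes and describe single genes only. The filter on low counts passed 9 members and removed Itga2. Itgb8 passed it only through replicate 2 of RA at 48 h, so its part in the counts at 48 h is a description only. Libraries held 7.079 to 10.95 M (mega) gene counts and fell into 2 sets by the share of reads that met no annotated feature, 57.3 to 59.43% in set 1 (replicate 1 of 0 h and of each RA time, and both DMSO libraries) and 52.51 to 53.77% in set 2 (all others). Between the sets, 42.1% of all genes differed in a fit with a term for the set. Itga3 was among them and was lower in set 2 (log2 -0.71), while Itgav (0.66) and Itgb8 (2.18) were higher there. Results that this term or the replicate number as a block changes are therefore given with it. The cell line's own markers were present: the summed level of 10 embryonal carcinoma genes was 5184 to 6028 CPM at 0 h, 5886 and 6504 CPM in DMSO, and 1659 to 2595 CPM after 48 h of RA, where 9 of the 10 were called lower.

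The start regions of 3 members that rose by 48 h show the sequence context of these genes. In RefSeq's windows of 250 bases upstream of the start (GRCm38.p6), 7 members had 8 windows, and Itga6, Itga7 and Itgb3 had none. The windows below are written 5′ to 3′ on the gene's strand, and capitals mark the GC box GGGCGG on either strand. They lie at chr15:103366792-103367041 (minus strand, Itga5), chr2:83724147-83724396 (plus strand, Itgav) and chr8:128685404-128685653 (plus strand, Itgb1).
Itga5: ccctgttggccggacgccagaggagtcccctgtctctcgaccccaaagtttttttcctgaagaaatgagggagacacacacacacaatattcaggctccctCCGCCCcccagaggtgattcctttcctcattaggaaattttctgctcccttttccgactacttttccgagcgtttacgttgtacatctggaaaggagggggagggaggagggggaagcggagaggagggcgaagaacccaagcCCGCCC
Itgav: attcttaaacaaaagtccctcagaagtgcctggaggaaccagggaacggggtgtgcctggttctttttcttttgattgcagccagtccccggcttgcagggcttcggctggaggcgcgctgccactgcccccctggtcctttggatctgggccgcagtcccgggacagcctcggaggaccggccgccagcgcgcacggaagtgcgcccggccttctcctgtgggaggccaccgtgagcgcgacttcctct
Itgb1: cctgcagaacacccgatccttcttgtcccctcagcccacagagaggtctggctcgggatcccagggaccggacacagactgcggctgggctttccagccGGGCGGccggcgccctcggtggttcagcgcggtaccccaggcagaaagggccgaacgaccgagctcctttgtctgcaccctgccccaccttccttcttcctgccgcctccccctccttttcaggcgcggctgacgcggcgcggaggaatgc
Itga5 had 2 GC boxes, Itgb1 had 1 and Itgav had 0, and 32.7% of all 32851 windows of this length held at least 1. The nuclear receptor half-site AGGTCA, searched on both strands, was in none of the 8 member windows and in 14% of all windows. Its other common form GGTTCA was found once each in the windows of Itgb1 and Itgb8, against 8.85% of all windows. Direct repeats of AGGTCA with 1, 2 or 5 bases between the copies, which contain that half-site, were in none of the 8 windows, and in at most 0.0335% of all windows. These are matches of letters in 1 short window per start, and the receptor-bound regions of the series, given on build mm9, were not used here.

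After RA, the RGD receptor chains Itga5, Itgav and Itgb3 and the common beta chain Itgb1 rose against 0 h, at different times. Itgb5 fell against 0 h at 24 h, where RA and DMSO differed by -0.12 ± 0.25 (adjusted p = 0.863). The laminin receptor chains Itga3, Itga6 and Itga7 were not called. Against DMSO only Itga5 and Itgb1 were called, both at 48 h. Itga3 differed from 0 h by as much as Itga5 at 48 h but varied more between libraries, and it was called with the replicate block. No member was called at 6 h (0 of 9, against 1.66% of all genes tested), with 1 of 9 at an unadjusted p under 0.05 in edgeR and 0 called by DESeq2. At 12 h Itgb3 rose (1 of 9, against 2.75%). At 24 h Itga5 and Itgb3 rose and Itgb5 fell (3 of 9, against 12.3% of all genes, 8.08% higher and 4.26% lower). By 48 h Itga5, Itgav, Itgb1 and Itgb3 had risen and none had fallen (4 of 9, against 29.5% of all genes, 17.5% higher and 12% lower). Tested over the 4 RA times together, Itga5, Itgb1 and Itgb3 were called (3 of 9, against 21.2%). At 48 h the share of members called was near that of all genes, and what follows describes single genes. With the library set term the members called were Itga5 at 6 h (against 5.61% of all genes), Itgb3 and Itgb5 (lower) at 12 h (12.7%), Itga5, Itgb3 and Itgb5 (lower) at 24 h (29%), Itga5, Itgav, Itgb1, Itgb3 and Itgb8 at 48 h (48.8%), and 6 over any RA time (48%). With the replicate block, which uses replicates 1 and 2 only and no DMSO library, they were Itga3 at 6 h (5.01%), Itga3 and Itgb5 (lower) at 12 h (9.25%), Itga3, Itga5, Itgb3, Itga6 (lower) and Itgb5 (lower) at 24 h (26.8%), Itga3, Itga5, Itgav, Itgb1, Itgb3 and Itgb8 at 48 h (44.3%), and 7 over any RA time (47.5%). In bulk RNA, fewer cells of a type and less RNA per cell cannot be told apart.

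**Figure D1:**
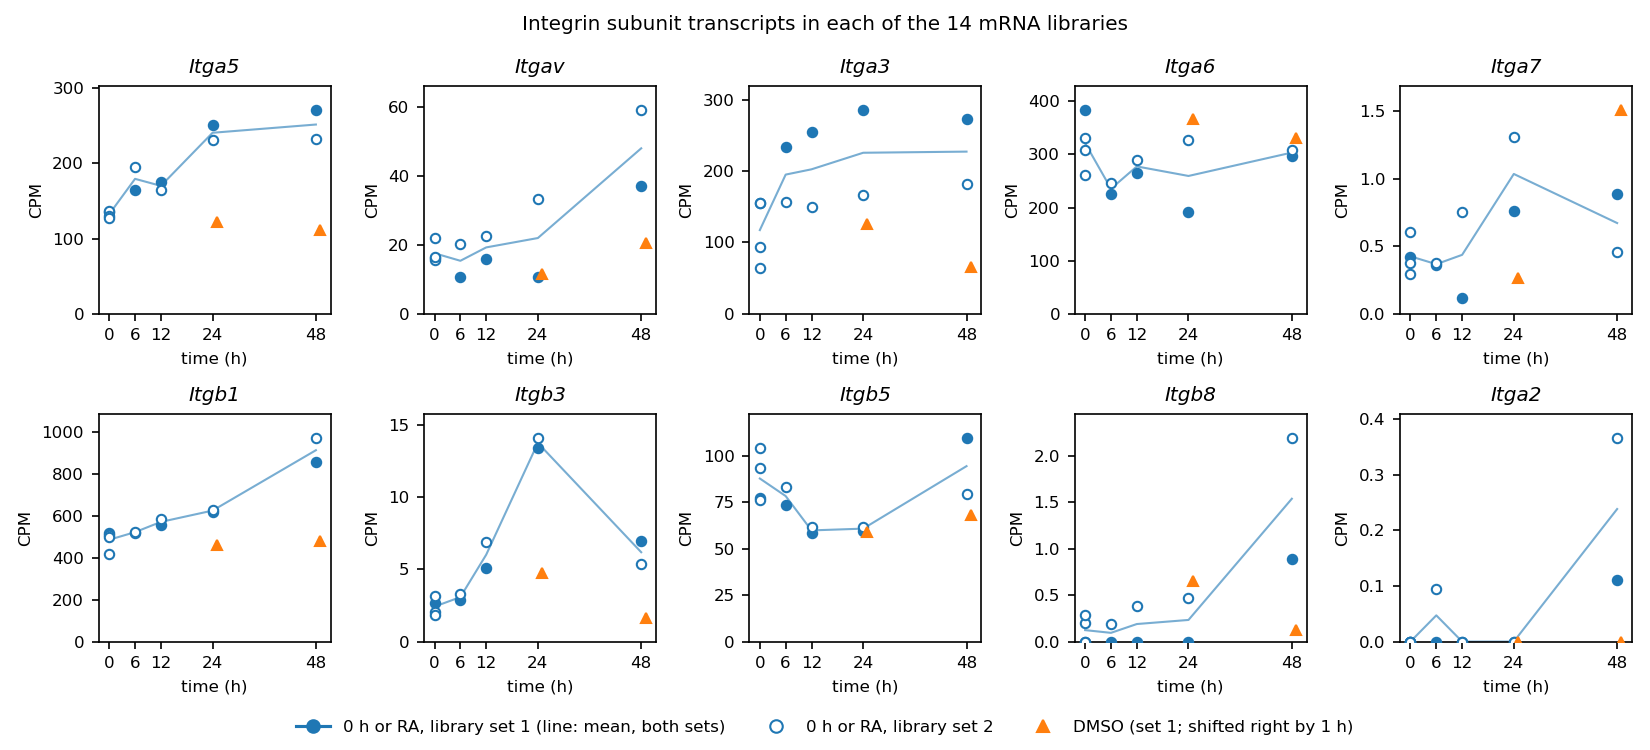
Level of each of the 10 integrin subunits (CPM, 1 linear axis per gene from 0) against time (h) in the 14 mRNA libraries. Filled circles are set 1, open circles set 2, triangles the DMSO libraries, and lines join the means over all 0 h or RA libraries at a time. Itga5 and Itgb1 climb with time, Itgb3 peaks at 24 h, Itgb5 dips at 12 and 24 h, and Itga3 and Itgav split by library set under RA.

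Itga5, the alpha chain of the main fibronectin receptor, rose by 24 h and stayed high. Its level was 136, 136, 130.2 and 127 CPM in the 4 libraries at 0 h (132 ± 4.52, SD, n = 4), 164 and 195 CPM at 6 h, 175 and 165 CPM at 12 h, 250.4 and 231 CPM at 24 h, and 270.2 and 233 CPM at 48 h. Every RA library from 6 h on lay above all 4 libraries at 0 h. The DMSO libraries held 122 and 112 CPM, below the 0 h libraries on this scale (with TMM factors that at 24 h lay inside their range). Against 0 h the rise was 0.75 ± 0.13 (SE) at 24 h (adjusted p = 0.0058) and 0.77 ± 0.13 at 48 h (adjusted p = 0.0021). At 6 h the difference was 0.46 ± 0.14 (adjusted p = 0.171), called with the set term (0.44, adjusted p = 0.0339) and not with the replicate block (adjusted p = 0.0889). From 24 to 48 h it differed by 0.02 ± 0.16 (adjusted p = 0.978). The call at 24 h was lost without replicate 1 of that time (adjusted p = 0.0561), and the call at 48 h held in all 14 fits that left out 1 library.

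Itgb1, the partner shared by most of these alpha chains, was first called against 0 h at 48 h. Its 4 libraries at 0 h held 516, 511, 416 and 499.8 CPM (486 ± 46.8), and the RA libraries held 520.2 and 524 CPM at 6 h, 556 and 586 CPM at 12 h, 619.9 and 629.9 CPM at 24 h and 855 and 970.4 CPM at 48 h. The RA libraries lay above all 0 h libraries at every time, but with TMM factors replicate 2 of 6 h (529 CPM) fell below replicate 1 of 0 h (549.5 CPM). At 48 h the rise was 0.76 ± 0.13 (adjusted p = 0.0020, highest 0.0157 with any 1 library left out). At 6, 12 and 24 h the differences were 0.13, 0.22 and 0.25, with adjusted p of 0.938, 0.518 and 0.253. With the set term and without TMM factors Itgb1 was also called at 24 h. The step from 24 to 48 h was 0.51 ± 0.15 (adjusted p = 0.175), and it was called with the set term (adjusted p = 0.0240) and with the replicate block (0.52, adjusted p = 0.0091), but not with the set term without replicate 1 of 24 h (adjusted p = 0.0960).

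Itgav, the alpha chain shared by the vitronectin and latent TGF-beta receptors, was low until 24 h. The libraries at 0 h held 16.1, 22.1, 15.5 and 16.6 CPM (17.6 ± 3.06, n = 4). Under RA it was 10.6 and 20.2 CPM at 6 h, 15.8 and 22.7 CPM at 12 h, 10.6 and 33.4 CPM at 24 h and 37 and 59 CPM at 48 h. The set 1 library was the lower of each pair, and at 24 h the pair lay on either side of the 0 h range. Both RA libraries at 48 h lay above all others. The rise at 48 h was 1.30 ± 0.39 (adjusted p = 0.0279), the largest among the members called then. It was 1.42 with the set term (adjusted p = 2.8e-04), 1.20 in set 1 and 1.72 in set 2 as plain differences of log2 CPM. Leaving out any of 4 libraries (0 h replicates 1, 3 and 4, and RA 48 h replicate 2) ended the call (adjusted p up to 0.185). The step from 24 to 48 h was 1.10 ± 0.47 (adjusted p = 0.327), called with the set term (1.18, adjusted p = 0.0178) and with the replicate block (1.20, adjusted p = 0.0049). It moved with the 24 h library used: without replicate 1 of 24 h it was 0.53, without replicate 2 it was 2.09, and with the set term but without replicate 1 it was 0.73 and not called (adjusted p = 0.171).

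Itgb3, which with Itgav forms a vitronectin receptor, had a different time course, with its highest level at 24 h. It was at 2.68, 3.13, 2.02 and 1.84 CPM at 0 h (2.42 ± 0.596), 2.86 and 3.3 CPM at 6 h, 5.12 and 6.9 CPM at 12 h, 13.4 and 14.1 CPM at 24 h, and 6.98 and 5.39 CPM at 48 h. All RA libraries from 12 h on lay above those at 0 h, and the RA libraries at 24 h lay above all others. The DMSO libraries held 4.72 CPM at 24 h and 1.63 CPM at 48 h. These are low levels, with 13 to 151 reads per library. The rise was 1.29 ± 0.29 at 12 h (adjusted p = 0.0458), 2.39 ± 0.29 at 24 h (adjusted p = 0.00061) and 1.20 ± 0.29 at 48 h (adjusted p = 0.0119). The call at 24 h held in every fit with 1 library left out (adjusted p up to 0.00616). That at 12 h was lost in 12 of 14 such fits (adjusted p up to 0.337) and with the replicate block (1.03, adjusted p = 0.0648), and that at 48 h was lost without replicate 1 of 48 h (adjusted p = 0.112) and in set 2 alone. The step up from 12 to 24 h was 1.10 ± 0.34 (adjusted p = 0.284, called with the replicate block at adjusted p = 0.0274). The step down from 24 to 48 h was -1.19 ± 0.34 (adjusted p = 0.150), called with the set term (-1.20, adjusted p = 0.0265) and with the replicate block (-1.18, adjusted p = 0.0127), but not with the set term without replicate 1 of 24 h (adjusted p = 0.115).

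Itgb5, another partner of Itgav, ran the other way at the middle times. The 0 h libraries held 77.5, 104, 93.3 and 76.3 CPM (87.8 ± 13.3), and the RA libraries held 73.5 and 83.2 CPM at 6 h, 58.2 and 61.5 CPM at 12 h, 59.7 and 61.9 CPM at 24 h, and 109 and 79.4 CPM at 48 h. Both pairs at 12 and 24 h lay below all 4 libraries at 0 h, and those at 48 h overlapped them. The fall was -0.64 ± 0.18 at 24 h (adjusted p = 0.0417) and the difference -0.57 ± 0.18 at 12 h (adjusted p = 0.147, called with the set term at adjusted p = 0.0326 and with the replicate block at adjusted p = 0.0313). The call at 24 h was lost without any 1 of 8 libraries (replicates 2 and 3 of 0 h and both of 6, 12 and 24 h, adjusted p up to 0.158) and without the TMM factors (-0.53, adjusted p = 0.0899). At 48 h the change from 0 h was -0.04 ± 0.17, or 0.10 without the TMM factors, neither of them called. The step from 24 to 48 h was 0.60 ± 0.20 (adjusted p = 0.217), called with the set term (0.59, adjusted p = 0.0496) and with the replicate block (0.61, adjusted p = 0.0236), but not with the set term without replicate 1 of 24 h (adjusted p = 0.194). Without replicate 1 of 48 h it was 0.32 and without replicate 2 it was 0.89, neither called. Both DMSO libraries, at 58.8 and 68.2 CPM, also lay below the 0 h range, and at 24 h RA and DMSO differed by -0.12 ± 0.25 (adjusted p = 0.863).

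Itgb8, which with Itgav holds latent TGF-beta, was near the limit of detection. Its counts were 0, 0, 2 and 3 reads at 0 h, 0 and 2 at 6 h, 0 and 4 at 12 h, 0 and 5 at 24 h, and 8 and 24 at 48 h, with 5 and 1 in the DMSO libraries at 24 and 48 h. Both RA libraries at 48 h lay above all others. Summed over libraries, 32 reads under RA at 48 h against 5 at 0 h gave a ratio of 12.1 once divided by the gene totals (95% exact interval 4.69 to 39.8, counting error only). The change was not called (adjusted p = 0.0661), but was with the set term (adjusted p = 0.0022) and with the replicate block (adjusted p = 0.0049). The block used 2 libraries at 0 h, both of which had 0 reads. Itgb8 passed the filter on low counts only through replicate 2 of RA at 48 h (2.19 CPM). It was tested because it was high there, so the ratio and the calls at 48 h are descriptions only.

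**Figure D2:**
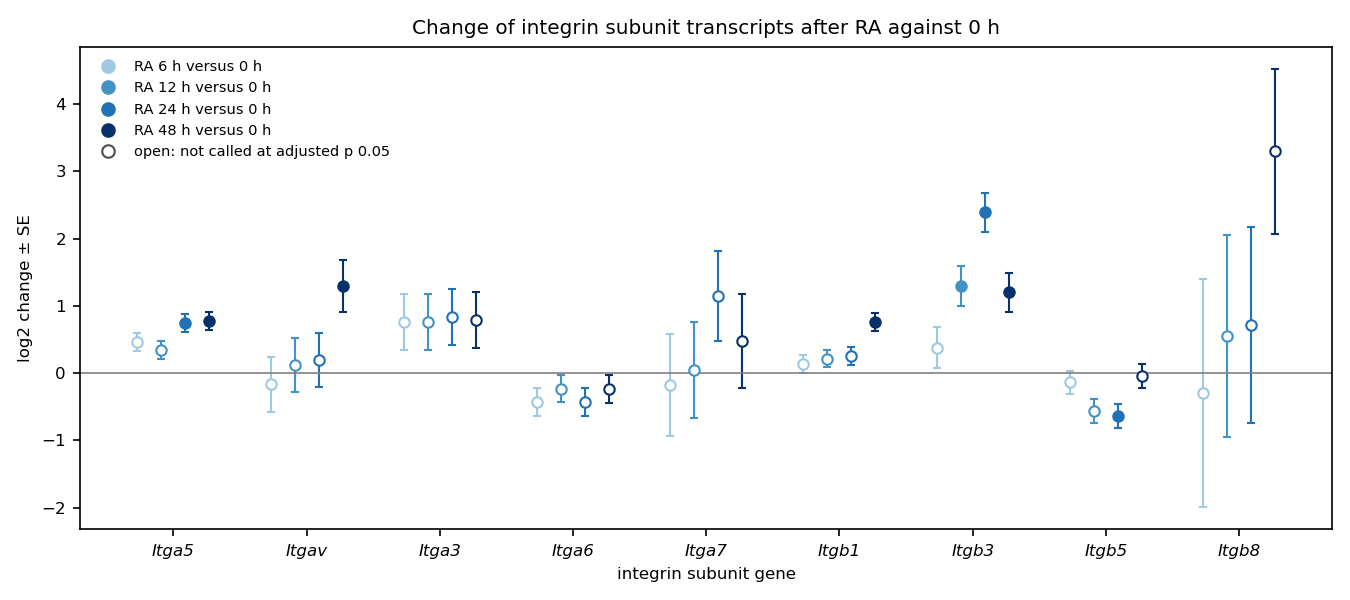
Log2 change against 0 h (vertical axis, with its SE as bars) at 6, 12, 24 and 48 h of RA for the 9 members tested, shown along the horizontal axis. Filled points were called at an adjusted p under 0.05: Itgb3 at 12, 24 and 48 h, Itga5 at 24 and 48 h, Itgb5 (lower) at 24 h, and Itgav and Itgb1 at 48 h.

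Itga6, a laminin receptor chain abundant in embryonic stem and epithelial cells, was not called at any RA time. Its libraries at 0 h held 383, 332, 261 and 308 CPM (321 ± 50.6), and the RA libraries held 225 and 246 CPM at 6 h, 265 and 290.1 CPM at 12 h, 192 and 327 CPM at 24 h and 298 and 309 CPM at 48 h. The pair at 6 h lay below all 0 h libraries, and the pairs at 12 and 48 h lay within their range. At 24 h replicate 1 was the lowest of all 14 libraries and replicate 2 lay inside the 0 h range. Changes from 0 h ran from -0.43 ± 0.21 at 24 h (adjusted p = 0.212) to -0.23 ± 0.21 at 12 h (adjusted p = 0.706), and at 48 h the change was -0.24 ± 0.21 (adjusted p = 0.433). With the replicate block the 24 h change was called (-0.60, adjusted p = 0.0297). The change moved with the 24 h library used: without replicate 2 it was -0.80 and called (adjusted p = 0.0416), and with the set term but without replicate 1 it was -0.10 (adjusted p = 0.740).

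Itga3, another laminin receptor chain, was higher in the RA means at every time but varied with the library set. At 0 h it was at 155, 64.6, 155 and 94.2 CPM (117 ± 45.4). Under RA it was at 233 and 157 CPM at 6 h, 255 and 149.7 CPM at 12 h, 285 and 166 CPM at 24 h and 273 and 182 CPM at 48 h. Each pair had its higher value in the set 1 library, and all RA libraries except replicate 2 of 12 h lay above all 0 h libraries. With TMM factors replicate 2 of 6 h (158 CPM) and of 24 h (153 CPM) also lay below the highest 0 h library (165 CPM), so that only the 48 h pair stood clear, by a narrow margin (166 CPM). The changes from 0 h were 0.76, 0.77, 0.83 and 0.79 at 6, 12, 24 and 48 h, with SEs of 0.41 to 0.42, and none was called (adjusted p = 0.660, 0.458, 0.230 and 0.183). With the set term they were 0.56 to 0.62 and were not called either (lowest adjusted p = 0.0791, at 48 h). With the replicate block they were 0.93, 0.92, 0.98 and 0.99 and all 4 were called (adjusted p = 0.0039, 0.0032, 8.7e-04 and 3.4e-04). That fit leaves out replicates 3 and 4 of 0 h, and replicate 3 was at the upper end of the 0 h range.

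Itga7, the laminin receptor chain of muscle, was barely detected, with 1 to 14 reads in each library and 0.291 to 0.607 CPM at 0 h. Its highest levels were 1.51 CPM in DMSO at 48 h and 1.31 CPM in replicate 2 of RA at 24 h. Both libraries of RA at 24 h lay above the 0 h range, and the change of 1.14 ± 0.67 was not called (adjusted p = 0.309). Itga2, the collagen receptor chain, had 0 reads in 11 of the 14 libraries, 1 read in replicate 2 of 6 h, and 1 and 4 reads in the 48 h libraries. A total of 0 reads at 0 h allows a level of up to 0.0794 CPM.

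Counted by libraries whose CPM, without TMM factors, do not overlap, 3 of the 9 members tested (Itga3, Itga5 and Itgb1) lay above all 0 h libraries at 6 h, where 9.32% of all genes did, and Itga6 lay below them, as did 9.19%. At 12 h 3 lay above (Itga5, Itgb1 and Itgb3, against 13.6%) and Itgb5 below (against 11.5%). At 24 h 5 lay above (Itga3, Itga5, Itga7, Itgb1 and Itgb3, against 23%) and Itgb5 below (against 10.3%). At 48 h 6 lay above (Itga3, Itga5, Itgav, Itgb1, Itgb3 and Itgb8, against 32.2%) and none below (against 16.7%). With TMM factors Itga3 left the counts at 6 and 24 h, Itgb1 left that at 6 h, and Itgb3 joined that at 6 h.

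Between successive RA times no member was called: 0 of 9 from 6 to 12 h (against 0% of all genes), from 12 to 24 h (against 0.0124%) and from 24 to 48 h (against 0.706%). At an unadjusted p under 0.05 edgeR gave 1, 2 and 4 members for these steps. DESeq2 called 0, 0 and 1, the last being Itgb1. The share of all genes under these rules is not given here, so these counts are not read as a result about the members. With the set term, 4 members were called from 24 to 48 h, against 11% of all genes: Itgav, Itgb1 and Itgb5 higher and Itgb3 lower. With the replicate block the same 4 genes were called in the same directions (against 16.4%), and Itgb3 was called from 12 to 24 h (against 11.5%). All 4 calls were lost with the set term once replicate 1 of 24 h was left out (0 called, 5 at an unadjusted p under 0.05), a fit with 1 library at 24 h. The step of Itgav was smaller in that fit, and those of Itgb1, Itgb3 and Itgb5 were 0.52, -1.22 and 0.59.

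The solvent controls compare RA with the same time in culture, with 1 DMSO library per time. At 24 h no member was called between RA and DMSO (0 of 9, against 1.89% of all genes), with 3 at an unadjusted p under 0.05 in edgeR. Itga5 had the lowest adjusted p (0.81 ± 0.20, adjusted p = 0.0761). It was called by DESeq2 and with the set term (0.87, adjusted p = 0.0057, against 10.4%). Itgb3 was at 4.72 CPM in DMSO at 24 h, above all 0 h libraries and below both RA libraries of that time, a difference of 1.37 ± 0.45 (adjusted p = 0.165). At 48 h Itga5 (1.01 ± 0.20, adjusted p = 0.0177) and Itgb1 (0.76 ± 0.20, adjusted p = 0.0400) were higher in RA than in DMSO (2 of 9, against 7.96%). Itgb1 stood at 478 CPM in DMSO, within the 0 h range, and Itga5 at 112 CPM, below it. For Itgb3 the difference was 1.75 ± 0.48 (adjusted p = 0.0510), for Itga3 1.63 ± 0.65 (adjusted p = 0.153) and for Itgav 1.06 ± 0.59 (adjusted p = 0.298). In a fit of the compared groups alone both calls were lost (adjusted p = 0.141 for Itga5 and 0.312 for Itgb1), and Itga3 was called instead (1.66, adjusted p = 0.0270).

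With the set term, 4 members were called at 48 h against DMSO, against 24.1% of all genes: Itga5, Itgb1, Itga3 (1.96, adjusted p = 0.0073) and Itgb3 (1.77, adjusted p = 0.0196). For Itgav the difference was 0.70 in that fit (adjusted p = 0.191). The fits that left out 1 library in turn had no set term. In them the change of Itga5 ran from 0.86 to 1.18, and its call was lost without replicate 1 of RA at 48 h. The call of Itgb1 was lost in 8 of the 13 fits that left out 1 library (replicates 2 and 4 of 0 h and both of 6, 12 and 48 h, adjusted p up to 0.111). Between both DMSO libraries and 0 h no member was called (0 of 9, against 0%), with 1 at an unadjusted p under 0.05 in edgeR and 0 called by DESeq2. The RA to DMSO difference at 48 h against that at 24 h was called for no member (0 of 9, against 0%), with 0 at an unadjusted p under 0.05 in edgeR and 0 called by DESeq2. The comparisons with 0 h and with each DMSO library share their RA libraries, so they are given side by side.

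**Figure D3:**
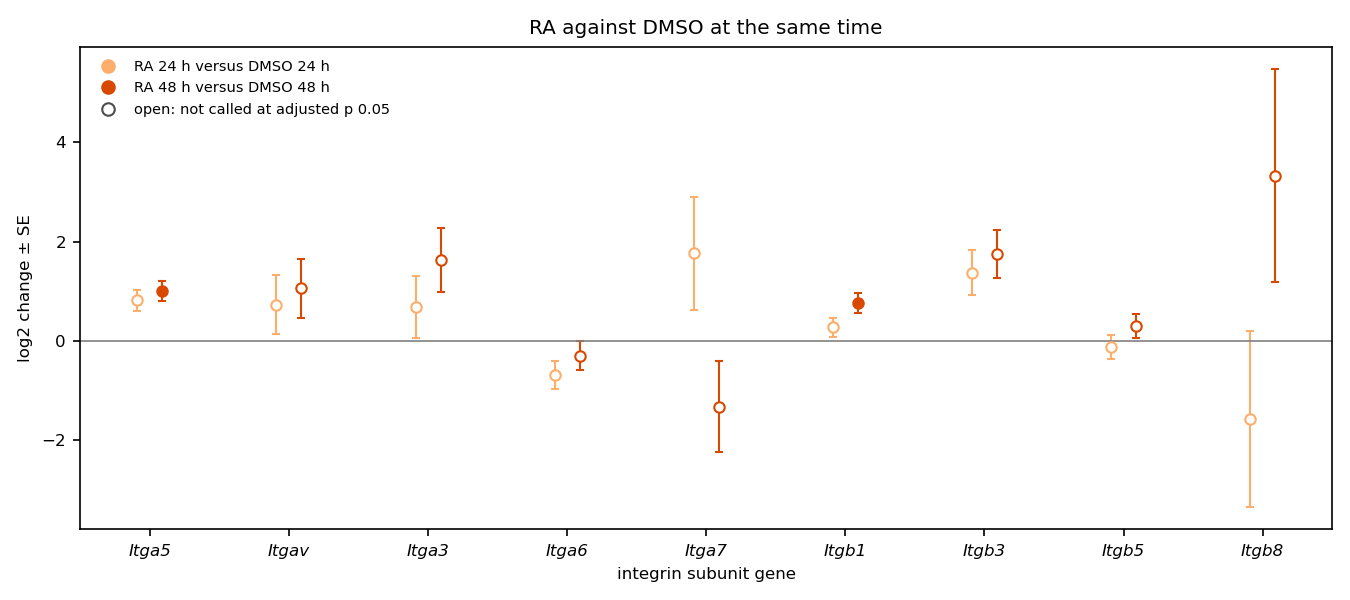
Log2 change of RA against the DMSO library of the same time (vertical axis, with its SE as bars) for the 9 members tested, at 24 h (light) and 48 h (dark). Filled points, Itga5 and Itgb1 at 48 h, were called at an adjusted p under 0.05, and bars are long for Itga7 and Itgb8, which had few reads.

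Ratios of 2 members within a library do not depend on the library's scaling, and 3 of them were computed, chosen after the values were seen. They are ratios of read counts, which carry the lengths of the transcripts, so only their change between libraries is read. The ratio of Itga5 to Itga6 was 0.355 to 0.499 at 0 h, 0.728 and 0.792 at 6 h, 0.661 and 0.569 at 12 h, 1.31 and 0.705 at 24 h, and 0.907 and 0.753 at 48 h. It was 0.333 and 0.337 in the DMSO libraries. Every RA library was above every 0 h and DMSO library. The ratio of the 2 laminin receptor chains Itga3 to Itga6 was 0.195 to 0.594 at 0 h, 1.04 and 0.639 at 6 h, 0.965 and 0.516 at 12 h, 1.49 and 0.508 at 24 h, and 0.917 and 0.588 at 48 h, with 0.344 and 0.198 in DMSO. It was also higher in the RA means, but its set 2 libraries overlapped the 0 h range from 12 h on. The ratio of Itgb3 to Itgb5 was 0.0217 to 0.0346 at 0 h, 0.039 and 0.0396 at 6 h, 0.088 and 0.112 at 12 h, 0.225 and 0.227 at 24 h, and 0.0638 and 0.0679 at 48 h. The DMSO library at 24 h had 0.0804, above both RA libraries at 48 h, and that at 48 h had 0.0239.

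**Figure D4:**
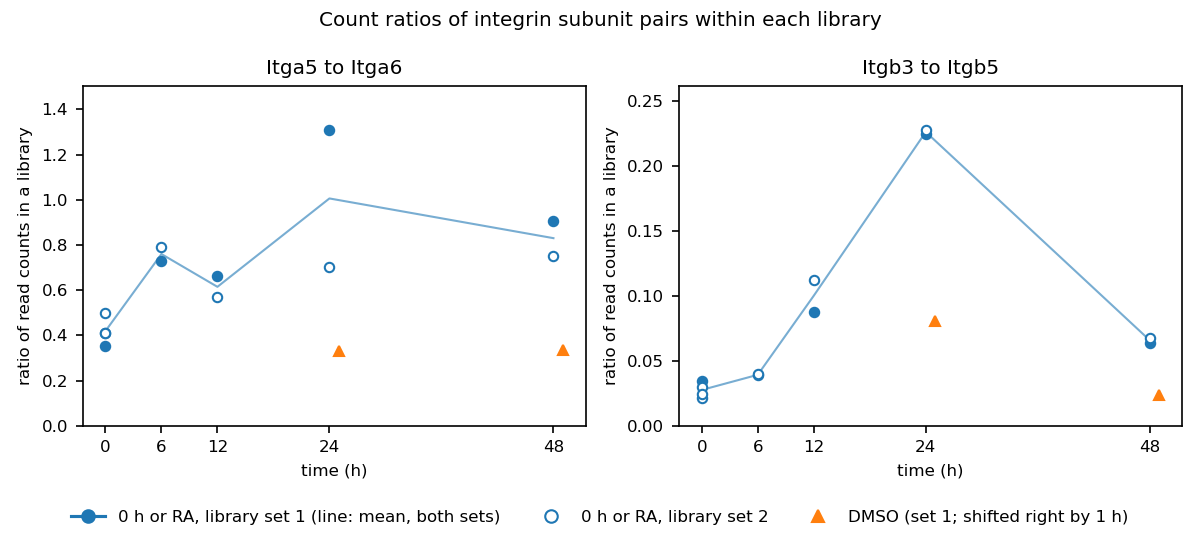
Ratios of read counts within each library against time (h), with Itga5 to Itga6 on the left and Itgb3 to Itgb5 on the right, on linear axes from 0. Filled and open circles are the library sets, triangles the DMSO libraries, and lines join the means over all 0 h or RA libraries. The left ratio is higher in all RA libraries than at 0 h, and the right one peaks at 24 h in both replicates.

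Of 16 other integrin genes, 10 were tested, and at 48 h 2 rose and 2 fell (of all genes tested, 17.5% and 12%). Against DMSO at 48 h none was higher and 1, Itgb7, was lower (7.96% of all genes called), or 2 higher and 2 lower with the set term (24.1%). Those that rose against 0 h were Itgb4, the hemidesmosome partner of Itga6 (2.32 ± 0.53, adjusted p = 0.0085), and Itga8, a receptor for nephronectin (2.32 ± 0.59, adjusted p = 0.0142). Itgb4 went from 5.29 ± 2.31 CPM (SD, n = 4) at 0 h to 29.4 ± 21.6 CPM (n = 2) at 48 h and lost its call without replicate 1 of 48 h, and Itga8 went from 3.32 ± 1.54 to 18.5 ± 18.6 CPM and lost its call without replicate 2. Itgb7, the partner of leukocyte alpha chains, fell from 27.5 ± 8.28 to 6.23 ± 2.48 CPM (-2.31 ± 0.44, adjusted p = 0.0032). Itga1, a collagen receptor chain, fell from 2.71 ± 1.33 to 0.385 ± 0.231 CPM (-2.90 ± 0.95, adjusted p = 0.0412, a call lost without any 1 of 9 libraries). It was named because it completes the count.

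Of 27 matrix ligands tested from a list of 34 genes in the tables, 18 rose and 1 fell at 48 h against 0 h (of all genes tested, 17.5% and 12%), and 9 were higher and none lower against the DMSO library of 48 h (7.96% of all genes called). At 48 h against 0 h their median change was 1.93 against 0.01 for all genes tested. This list, like the others here, was chosen with earlier results of these data known, so its counts and median are descriptions only. At 24 h 5 had risen and 2 had fallen (of all genes tested, 8.08% and 4.26%), and at 6 and 12 h none was called (against 1.66% and 2.75%). With the set term 1 was higher and 1 lower at 6 h (5.61% of all genes called), and 5 and 2 at 12 h (12.7%). At 24 and 48 h that term gave 9 and 2 (29%) and 21 and 1 (48.8%). Against DMSO at 48 h it gave 14 higher and 1 lower (24.1%). The collagen IV chain Col4a1 went from 56.3 ± 21.1 CPM (SD, n = 4) to 1944 ± 177 CPM (n = 2), or 4.95 ± 0.42 (adjusted p = 4.0e-05), and Col4a2 rose by 5.24 ± 0.61. The laminin chain Lama1 rose from 58.9 ± 28.3 to 1467 ± 642 CPM (4.48 ± 0.55, adjusted p = 3.2e-04), and Npnt, nephronectin, by 3.77 ± 0.56. The one that fell was Thbs2, a thrombospondin (-2.03 ± 0.67, adjusted p = 0.0432, a call lost without any 1 of the 4 libraries at 0 h or the 2 at 48 h). Fn1, fibronectin, the ligand of the Itga5 receptor, was at 290.4 ± 21.2 CPM at 0 h and 468 ± 91.2 CPM at 48 h (0.54 ± 0.19, adjusted p = 0.0522), and was called with the set term (adjusted p = 0.0151). The DMSO library of 48 h held 378 CPM of Fn1, and RA at 48 h differed from it by 0.14 (adjusted p = 0.777). Vtn, vitronectin, had 0 reads in every library. Fn1 and Vtn were named for being the ligands of these receptors.

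Of 40 genes for cytoplasmic partners, all tested, 11 rose and 1 fell at 48 h (median 0.28), or 17 and 6 with the set term. Of all genes tested, 29.5% were called, and 48.8% with the set term. Against DMSO at 48 h 4 were higher and none lower (7.96% of all genes called), or 9 higher and 2 lower with the set term (24.1%). Dab2, an adaptor that binds beta chain tails and is also among the endoderm markers used here, rose by 6.74 ± 0.90, from 5.44 ± 5.36 to 645 ± 34.7 CPM. Tgfb1i1, a paxillin relative, rose by 2.39 ± 0.27 and Parva, a parvin that joins integrin-linked kinase to actin, by 1.94 ± 0.35. Ptk2b, a focal adhesion kinase relative, fell (-1.63 ± 0.45, adjusted p = 0.0203, lost without replicate 2 of 48 h). Of 18 membrane partners tested, 8 rose and none fell (median 0.67, of all genes 17.5% and 12%). Against DMSO at 48 h 6 were higher (7.96% of all genes called). Among those that rose against 0 h were the tetraspanins Cd63 (2.12 ± 0.28), Cd9 (1.37 ± 0.14) and Cd151 (1.32 ± 0.18), the last a known partner of Itga3 and Itga6, and Cd47, a partner of Itgb3 (2.06 ± 0.22). With the set term the count against 0 h became 9 higher and 3 lower (48.8% of all genes called). That against DMSO at 48 h became 7 higher and 1 lower (24.1%). Of 7 genes tested of latent TGF-beta and its carriers, 3 rose at 48 h, where 17.5% of all genes did (median 1.05): Ltbp1 (1.81 ± 0.40, adjusted p = 0.0069), Tgfb2 and Lrrc32. The last 2 were named because they complete the count. Tgfb2 (2.97 ± 0.64) lost its call without replicate 2 of 48 h, and Lrrc32 (3.94 ± 1.05) without either 48 h library. Lrrc32 (0.0485 CPM at 0 h, 1.09 CPM at 48 h) passed the filter on low counts only through 48 h, so its call is a description only. Tgfb1 went from 33.7 ± 13.6 CPM at 0 h to 8.44 ± 4.05 CPM at 48 h (-2.16 ± 0.78, adjusted p = 0.0604), with 50.2 CPM in DMSO at 48 h. With the set term 4 rose and 2 fell (48.8% of all genes called). The 2 were Tgfb1 (-2.59, adjusted p = 2.7e-04) and Ltbp4 (-0.38, adjusted p = 0.0442). Against DMSO at 48 h none of the 7 was called, or 1 higher and 1 lower with the set term (24.1% of all genes called with that term).

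**Figure D5:**
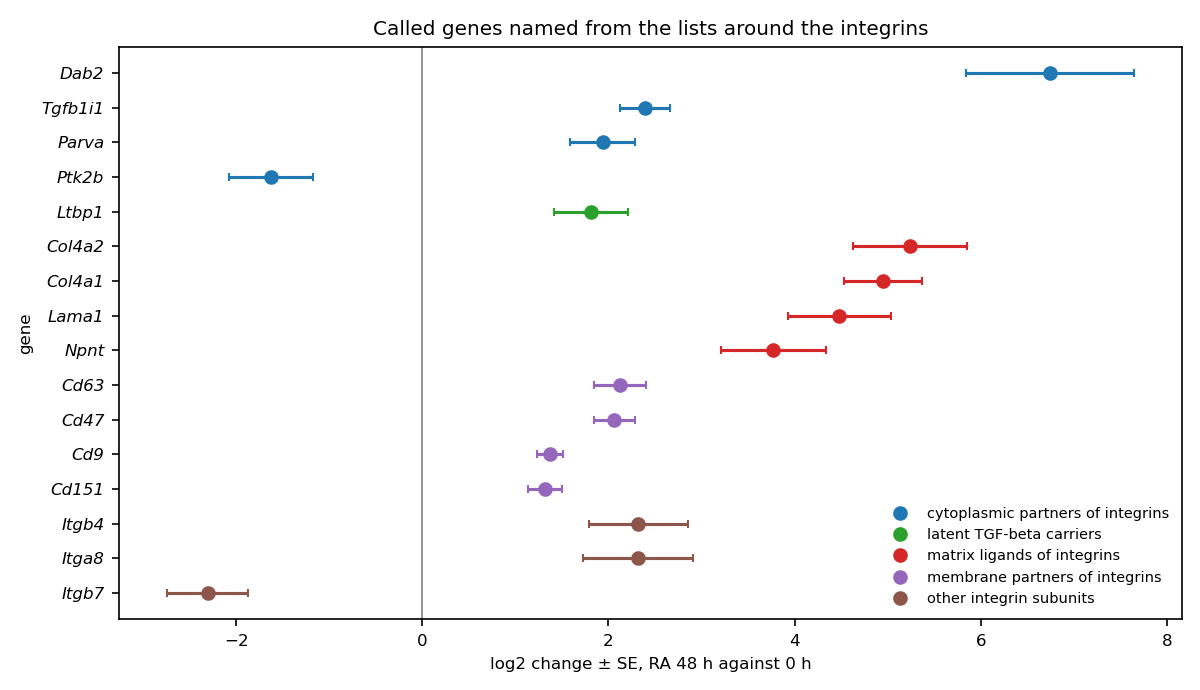
Log2 change at 48 h of RA against 0 h (horizontal axis, with its SE as bars) for 16 genes named by rule from 5 lists of integrin relatives, ligands and partners, coloured by list. All were called at an adjusted p under 0.05, 14 to the right of 0 and Itgb7 and Ptk2b to the left.

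The genes with a time course most like that of Itgav over the 14 libraries, among 11098 with a symbol and a mean of at least 5 CPM, were Tpp1, a lysosomal peptidase (Pearson's r of log2 CPM 0.960), Pgrmc1, a heme-binding membrane protein (0.953), Ogt, the O-GlcNAc transferase (0.950), and Ncoa2, a nuclear receptor coactivator (0.944). Within set 1 the values were 0.902 to 0.979 and within set 2 0.928 to 0.977. The points share libraries, depth and the library set, so these are descriptions of likeness only.

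Markers of other cells moved alongside the receptors. The summed level of 10 primitive and parietal endoderm genes was 471 to 749 CPM at 0 h and 2550 to 3795 CPM at 48 h (9 of 10 called higher, 644 and 719 CPM in DMSO). That of 8 visceral endoderm genes went from 1.71 to 7.47 CPM to 129.8 to 134 CPM. Of these 8, 5 passed the filter on low counts, and all 5 were called higher. Genes this low at 0 h can pass the filter through the libraries where they are high, so that count is a description only. The part of the endoderm genes in the changes of the integrin genes was not tested. Of markers of cells that carry Itgb3 elsewhere, blood and platelet genes summed to 135 to 179 CPM at 0 h and 68.8 to 106 CPM at 48 h, nearly all of it Laptm5, and Pf4, Hbb-bs and Tyrobp had 0 reads in all 14 libraries. Endothelial genes summed to 43.5 to 77.4 CPM at 0 h and 74.6 to 100.3 CPM at 48 h, with Emcn at 0 throughout, and fibroblast and muscle genes to 11.7 to 19 and 24.4 to 26.4 CPM, mostly Des, with Postn at 0 throughout. At 48 h against 0 h, 1 blood and platelet gene was called higher and 2 lower (4 tested). Of 6 endothelial genes tested, 2 were called higher and 1 lower. The most abundant of them, Pecam1, was at 21.2 to 32.9 CPM at 0 h and 8.09 to 15.7 CPM at 48 h. Of 4 fibroblast and muscle genes tested, 2 were called higher and 0 lower. Of all genes tested, 17.5% were called higher and 12% lower. At 24 h, where Itgb3 was highest, the fibroblast and muscle sum was 24.2 to 36.4 CPM under RA and 9.05 CPM in DMSO, the endothelial sum 66.1 to 87.3 and 49.3 CPM, and the blood and platelet sum 115 to 135 and 148 CPM. Their part in the level of Itgb3 was not tested.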

How the data were processed

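Per the labels' protocols, libraries were read as single ends of 72 or 50 bp, and which library had which length is not stated. Build mm9 and the tools TopHat2 2.0.7, HTSeq and DESeq are named in the submitters' processing notes. The strand setting is not given in the sources used here, so reads of overlapping genes cannot be told apart. For each library the authors deposited 1 table of raw counts of reads on Ensembl genes. The 5 entries given to no gene held 72.52 to 76.78% of counts and stayed out of the totals. The RAR and RXR regions, and the 8 ChIP libraries and 1 total chromatin library behind them, were not used here.

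All 14 mRNA libraries entered 1 edgeR 4.0.16 model (R 4.3.3) with 1 term per group, TMM factors (0.9291 to 1.095), edgeR's filter by group and a robust quasi-likelihood F-test, two-sided. SEs are the absolute log2 change over the square root of F. A group with 1 or 2 libraries took its spread from all groups. CPM are counts over gene totals without TMM factors. The fit was tested on simulated data. The members, the lists, the library sets and the naming rule were chosen with earlier results of these data known. By that rule all members are named, with the 4 genes most like the called member with the largest increase (no called decrease existed at 48 h), and, per list, up to 4 genes called at 48 h with a mean of at least 5 CPM and the largest change, plus those against their list's direction.

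Same-numbered libraries deviated together (r across genes of number 1 minus number 2 between groups 0.605 to 0.718, median 0.64, 10 pairs of groups). Number 1 is set 1 and number 2 is set 2 in each, so the pairing and the set cannot be told apart. Replicates differed beyond counting error (chi-square per degree of freedom 9.468 to 59.92). Alternatives were RLE factors, no TMM factors, DESeq2 1.42.0, other filters, the set term, set 2 alone, the replicate block, fits of the compared groups alone, and leaving out each library in turn. The set term without replicate 1 of 24 h was added after seeing the data. Plots used matplotlib 3.10.9.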

Additional observations from a re-analysis of the deposited data

Results flagged for a closer look

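In the 4 libraries at 0 h, 2 member values stood apart from the other 3 by Dixon's test at its 95% critical value for 4 samples. Itgav was at 22.1 CPM in replicate 2, with 16.6 CPM the nearest (ratio 0.832). Itgb1 was at 416 CPM in replicate 3, with 499.8 CPM the nearest (ratio 0.835). The test was run for 9 members, and chance gives about 1 in 20 groups such a value.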

How the results depend on the processing

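No change among the 26 pairs of a member and a comparison called without a further term, with the set term or with the replicate block turned its direction in the alternatives run. Of 124 alternative counts of members called, 90 lay within 1.5 times the count given above and 34 did not. With DESeq2 the counts became 5 for any RA time, 1 for 48 h against 24 h and 1 for RA against DMSO at 24 h. With the replicate block they became 7 for any RA time, 1 at 6 h, 2 at 12 h, 5 at 24 h, 1 for 24 h against 12 h and 4 for 48 h against 24 h, and it moved no other count by over 1.5 times. With the library set term they became 6 for any RA time, 1 at 6 h, 2 at 12 h, 4 for 48 h against 24 h, and 1 at 24 h and 4 at 48 h against DMSO. The same term without the TMM factors gave 6, 1, 2, 5 at 24 h, 2 for 24 h against 12 h, 4 for 48 h against 24 h, and 2 and 4 against DMSO, and without replicate 1 of 24 h it gave 6 for any RA time, 1 at 6 h, 2 at 12 h, 0 for 48 h against 24 h (4 with replicate 1), and 1 and 4 against DMSO. Without a filter there were 0 at 12 h and 1 against DMSO at 48 h, in set 2 alone 0 at 12 h, with only the groups compared 0 at 12 h and 1 against DMSO at 48 h (Itga3, with Itga5 and Itgb1 lost), and without the TMM factors 1 against DMSO at 24 h. The cause was not tested. With each library left out the counts ran from 2 to 4 for any RA time, 0 to 1 at 12 h, 1 to 3 at 24 h, 3 to 5 at 48 h and 0 to 2 against DMSO at 48 h, and stayed at 0 for the others. Leaving out the TMM factors moved the median of all genes to 0.16 at 48 h and 0.11 at 24 h against 0 h, and to 0.23 and 0.25 for RA against DMSO at 24 and 48 h, so changes on that scale are read against those shifts. With TMM-scaled CPM 6 of 50 group means moved by more than 1 SD. Depth limits Itga2, Itga7 and Itgb8, which had at most 4, 14 and 24 reads in a library.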
